A study of Mus musculus with 6 samples.

Results

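The 7 genes followed here encode transcription factors of effector lymphocytes, across 3 stages of natural killer (NK) cell maturation: the T-box factors Tbx21 (T-bet) and Eomes, the zinc finger factors Zeb1 and Zeb2, Prdm1 (Blimp-1), Irf8 and Gfi1. They were taken by gene symbol, and all of their probe sets on the array were used, 16 of the 45037 fitted, for 7 of 18193 genes. NK1.1+ spleen cells of RAG-/- mice, which lack mature T and B cells because antigen receptor genes cannot be rearranged, were separated by flow cytometry according to CD27 and CD11b. The subsets are CD27+CD11b-, then CD27+CD11b+, then CD27-CD11b+, commonly placed in this order from less to more mature. All 3 subsets share the RAG deficiency, and no age, sex, treatment or further allele is given in the labels used here. Each subset was measured on 2 Affymetrix arrays, 6 in all. The design text calls the replicates independent, but no label ties them to single animals. The spread behind each p-value may therefore be that of sorts or arrays only.

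T-bet and Eomes bind the same kind of DNA element and switch on cytotoxic granule, cytokine and receptor genes in NK and CD8 T cells, and T-bet is known to be needed for the late steps of NK maturation. Zeb1 and Zeb2 are related factors that mostly repress genes through E-box elements, and Zeb2 acts below T-bet in terminal NK maturation in the mouse. Blimp-1 and Gfi1 are zinc finger repressors, and Irf8 belongs to the interferon regulatory factors, best known from myeloid cells and B cells and also used by NK cells in antiviral responses.

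All values below are log2 expression values made with RMA, in which a step of 1 is a doubling. A level of 6.72, the 95th percentile of genes of other tissues such as brain, liver and muscle, served as background, because the values hold no detection calls. Of the 16 probe sets, 14 had a mean above it in at least 1 subset and 11 in every subset, and the brightest probe set of each of the 7 genes lay above it in every subset. A probe set was called at an adjusted p under 0.05 in a limma fit of all 45037.

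The bases before the starts of Zeb2 and Prdm1 are shown because these 2 genes had the largest changes by their brightest probe sets. They were taken from RefSeq, build GRCm38.p6, and run 250 bases up to the start. Motifs of 5 kinds were searched on both strands: the T-box element AGGTGTGA, the E-box CACCTG bound by Zeb1 and Zeb2, the IRF element GAAANNGAA, the Gfi1 core AAATCA and the Blimp-1 core GAAAGT. Capitals mark a match.
Zeb2, chr2:45117443-45117692, minus strand: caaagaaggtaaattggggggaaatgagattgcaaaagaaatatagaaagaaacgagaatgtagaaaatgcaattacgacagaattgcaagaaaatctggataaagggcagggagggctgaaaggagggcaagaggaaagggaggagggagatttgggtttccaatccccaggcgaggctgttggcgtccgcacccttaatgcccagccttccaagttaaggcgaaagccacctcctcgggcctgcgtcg
Prdm1, chr10:44458749-44458998, minus strand: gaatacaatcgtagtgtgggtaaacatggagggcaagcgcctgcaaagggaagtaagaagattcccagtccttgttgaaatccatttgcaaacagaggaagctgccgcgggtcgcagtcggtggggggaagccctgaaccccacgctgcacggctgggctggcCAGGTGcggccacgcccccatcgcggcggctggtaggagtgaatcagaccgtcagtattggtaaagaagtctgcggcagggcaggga
The Prdm1 window held 1 match, an E-box on the opposite strand whose first letter lay 87 bases before the start, and the Zeb2 window held 0 matches to any of the motifs. Of 32851 windows of this length in the table, 17.2% held the E-box, 1.12% the T-box element, 7.13% the IRF element, 12.4% the Gfi1 core and 12.3% the Blimp-1 core. RefSeq lists 4 starts for Zeb2. The windows of the second and the third start overlap and share 1 Blimp-1 core. A match describes letters only and does not show binding.

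The arrays were checked first. The 8 genes of the NK list, among them Ncr1, Klrd1, Nkg7 and the pan-leukocyte gene Ptprc, lay between 9.84 and 14.41 on every array. By contrast, 0 of 7 B cell markers and 2 of 7 T cell markers (Cd3g and Cd3d) were above background in any subset. CD27-CD11b+ minus CD27+CD11b- was -2.15 for Cd3g and -2.38 for Cd3d, not called over all probe sets (limma adjusted p = 0.226 and 0.0917). With 1 probe set per gene, Cd3d was called lower (limma adjusted p = 0.0256). The sort description of CD27-CD11b+ replicate 1 names the CD27+CD11b- gate although its title says CD11b+ CD27-. Its Itgam value of 9.93, for the CD11b chain, and its Cd27 value of 6.96 lay beside those of replicate 2, 9.44 and 6.47, and it was grouped by its title. Of the 4 ways to divide the arrays into 2 sets with 1 array of each subset, one separated 30 probe sets by at least 1 and the others at most 4. In it, replicate 1 of both CD27+ subsets goes with replicate 2 of CD27-CD11b+ (set A), and the other 3 arrays form set B. The mean of 14 monocyte and macrophage markers, 9 of them above background, followed this division. It was 6.14, 6.96 and 6.76 in set A and 7.44, 7.76 and 7.69 in set B, in the order of maturation. Among the 14, Cebpa and Fcgr1, both under background, did not follow it in every subset. The division was picked from the values of these same arrays, so the match is no independent evidence.

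**Figure D1:**
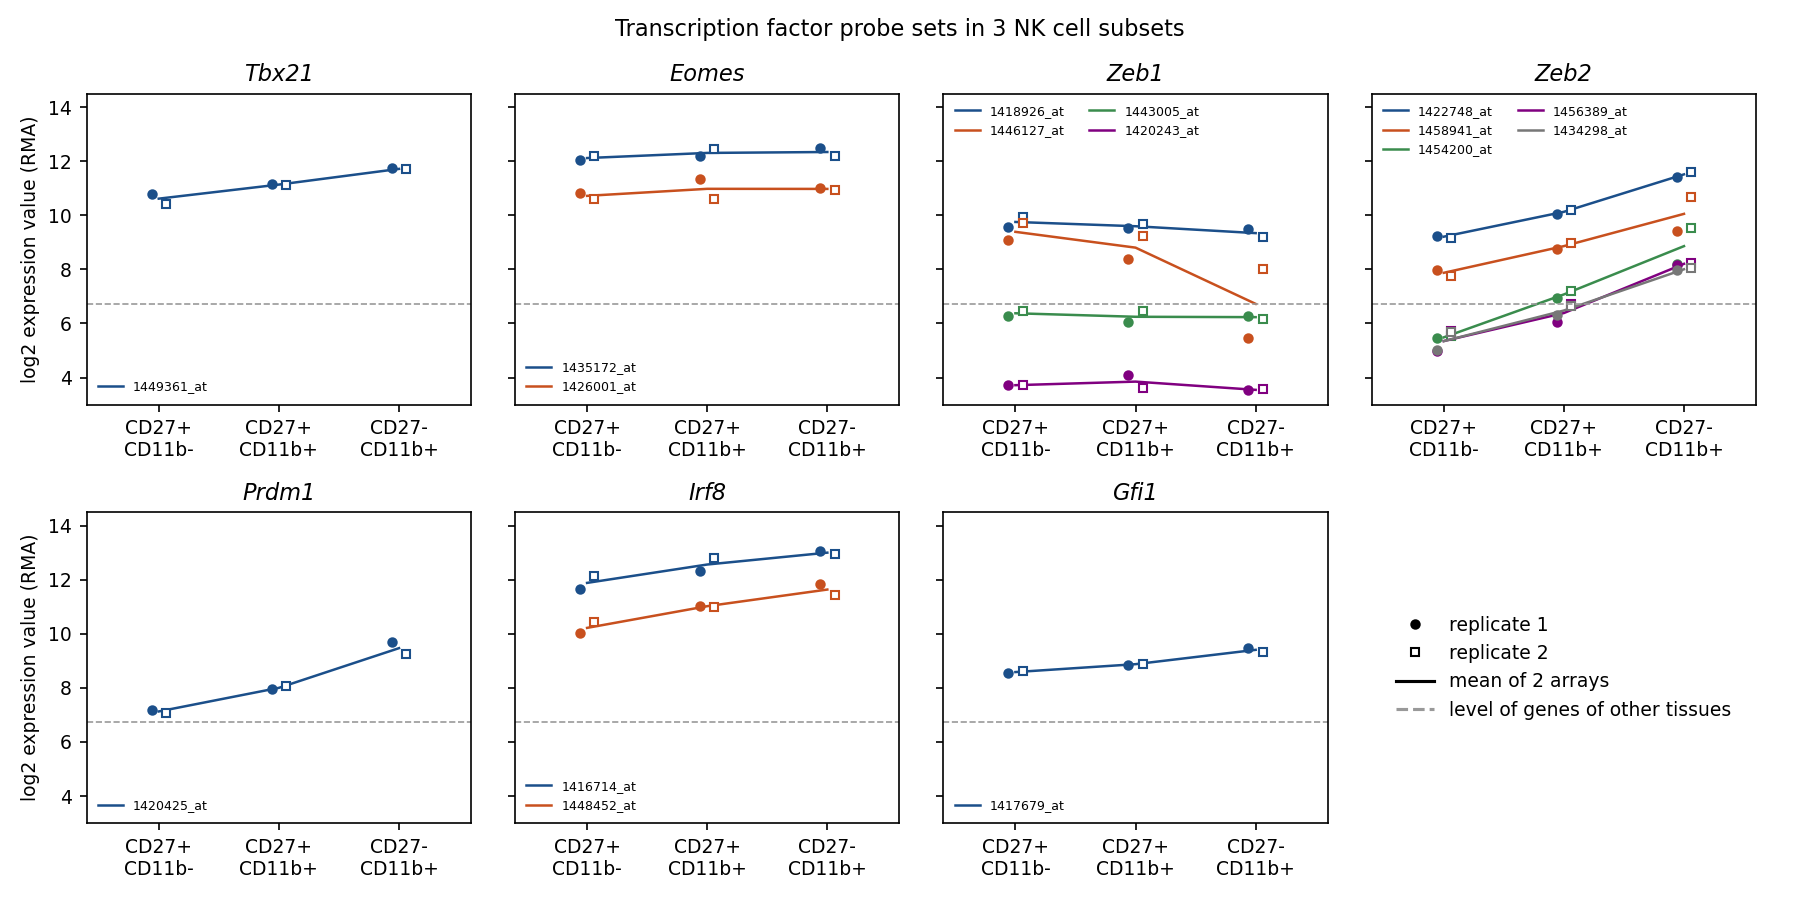
Log2 expression values (vertical axis) of the 16 probe sets in the 3 subsets (horizontal axis), 1 panel per gene, with replicate 1 as filled circles, replicate 2 as open squares, lines through the means of 2 arrays and a dashed line at the background level of 6.72. All 5 Zeb2 probe sets, both Irf8 probe sets and those of Tbx21, Prdm1 and Gfi1 step upward from subset to subset, and the Eomes lines stay within 0.26 of their starting mean.

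Zeb2 rose between the outer subsets by 4 of its 5 probe sets. Its brightest probe set, 1422748_at, was 9.25 and 9.17 in CD27+CD11b-, 10.05 and 10.21 in CD27+CD11b+, and 11.41 and 11.61 in CD27-CD11b+ (replicates 1 and 2). The 3 subsets did not overlap, and the arrays of a subset lay within 0.20 of each other. CD27-CD11b+ cells exceeded CD27+CD11b- cells by 2.30 (SE 0.15, n = 2 each), a 4.93-fold rise with a 95% interval of 3.86 to 6.30, at a limma adjusted p of 0.00524. The first step, CD27+CD11b+ minus CD27+CD11b-, was 0.92 (SE 0.15, limma adjusted p = 0.502), and the second, CD27-CD11b+ minus CD27+CD11b+, was 1.38 (SE 0.15, limma adjusted p = 0.0943). Neither step passed over all probe sets. In RNA of sorted cells, more cells with the transcript and more transcript per cell cannot be told apart.

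The other 4 Zeb2 probe sets ran the same way on every array. Probe set 1454200_at was 5.45 and 5.53 in CD27+CD11b-, 6.95 and 7.19 in CD27+CD11b+, and 8.21 and 9.51 in CD27-CD11b+. It rose by 3.37 between the outer subsets (SE 0.39, limma adjusted p = 0.0322), at least 4.40-fold when measured from the background level, under which both CD27+CD11b- arrays lay. The 2 CD27-CD11b+ arrays of this probe set differed by more than 1, with replicate 1 the lower. The dimmer 1456389_at and 1434298_at, below background in both CD27+ subsets, rose by 2.85 and 2.66 between the outer subsets (limma adjusted p = 0.0252 and 0.0161), at least 2.79-fold and 2.43-fold from background. Probe set 1458941_at was 9.41 and 10.69 in CD27-CD11b+ against 7.98 and 7.76 in CD27+CD11b-, a difference of 2.18 (SE 0.39, limma adjusted p = 0.0833) that did not pass. Over the 6 arrays the 10 pairs of Zeb2 probe sets had Pearson correlations between 0.895 and 0.995, as a description of values that share arrays and subsets.

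Zeb1, the relative of Zeb2, did not pass in any comparison over all probe sets, and whether its change differs from that of Zeb2 was not tested. Its brightest probe set, 1418926_at, was 9.58 and 9.93 in CD27+CD11b-, 9.51 and 9.68 in CD27+CD11b+, and 9.50 and 9.18 in CD27-CD11b+. The outer difference was -0.41 (SE 0.19, 95% interval -0.87 to 0.04, limma adjusted p = 0.381), so at the upper end of that interval Zeb1 was nearly level and at the lower end it was 0.548 times the CD27+CD11b- value. The lower Zeb1 probe set 1446127_at was 9.08 and 9.70 in CD27+CD11b-, 8.38 and 9.23 in CD27+CD11b+, and 5.45 and 8.0 in CD27-CD11b+. Replicate 1 of CD27-CD11b+ stood 2.55 under its partner, and the outer difference of -2.66 had an SE of 0.79 (limma adjusted p = 0.201). With that array alone for the subset, the outer difference was -3.94 (limma adjusted p = 0.0176), and with the other alone -1.39 (limma adjusted p = 0.302). The remaining probe sets, 1443005_at and 1420243_at, were below background in every subset.

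Prdm1, whose product Blimp-1 drives terminal differentiation of B and T cells, was second to Zeb2 in its adjusted p among the brightest probe sets. Its single probe set, 1420425_at, was 7.19 and 7.07 in CD27+CD11b-, 7.95 and 8.05 in CD27+CD11b+, and 9.69 and 9.25 in CD27-CD11b+, with no overlap between subsets. CD27-CD11b+ cells exceeded CD27+CD11b- cells by 2.34 (SE 0.18), a 5.06-fold rise with a 95% interval of 3.74 to 6.85 (limma adjusted p = 0.00918). The first step was 0.87 (limma adjusted p = 0.974) and the second 1.47 (limma adjusted p = 0.117). Of the 4 plasma cell markers, only Xbp1 was above background in any subset, and Sdc1, Jchain and Tnfrsf17 lay at or under 5.26 on every array.

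Of the T-box pair, Tbx21 was ordered by subset without overlap and Eomes was not. Tbx21 was 10.80 and 10.43 in CD27+CD11b-, 11.16 and 11.10 in CD27+CD11b+, and 11.73 and 11.70 in CD27-CD11b+, with replicates closest in the 2 CD11b+ subsets. The outer difference of 1.10 (SE 0.16), a 2.14-fold ratio with a 95% interval of 1.63 to 2.82, had a limma adjusted p of 0.0560 and did not pass over all probe sets. It passed in limma with a variance prior that follows the level (adjusted p = 0.0338), with arrays centred on their medians (0.0435) and with probe sets above background only (0.0482). Eomes, by its brighter probe set 1435172_at, was 12.04 and 12.19 in CD27+CD11b-, 12.18 and 12.43 in CD27+CD11b+, and 12.49 and 12.19 in CD27-CD11b+, and the subsets overlapped. Its outer difference was 0.22 (SE 0.17, 95% interval -0.19 to 0.64, limma adjusted p = 0.611), which bounds the ratio between 0.874 and 1.56. The second probe set, 1426001_at, gave 0.26 (95% interval -0.35 to 0.86). Whether the change of Tbx21 differs from that of Eomes was not tested.

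Irf8 was bright in all subsets. Probe set 1416714_at was 11.64 and 12.12 in CD27+CD11b-, 12.32 and 12.79 in CD27+CD11b+, and 13.06 and 12.93 in CD27-CD11b+. Probe set 1448452_at was 10.02 and 10.42, then 11.04 and 11.00, then 11.85 and 11.42 in the same order, and by both the subsets did not overlap. The outer differences were 1.12 (SE 0.23, limma adjusted p = 0.106) and 1.42 (SE 0.21, limma adjusted p = 0.0534), ratios of 2.17 and 2.67. Neither passed over all probe sets, and 1448452_at passed in limma with the variance prior that follows the level (adjusted p = 0.0310) and with probe sets above background only (0.0440).

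Gfi1, a repressor that restrains cytokine and cell cycle programmes in lymphocytes and is required for neutrophils, gave the smallest of the ordered changes. It was 8.56 and 8.61 in CD27+CD11b-, 8.86 and 8.89 in CD27+CD11b+, and 9.48 and 9.33 in CD27-CD11b+. The outer difference was 0.82 (SE 0.13), a 1.77-fold ratio with a 95% interval of 1.41 to 2.21, at a limma adjusted p of 0.0708.

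**Figure D2:**
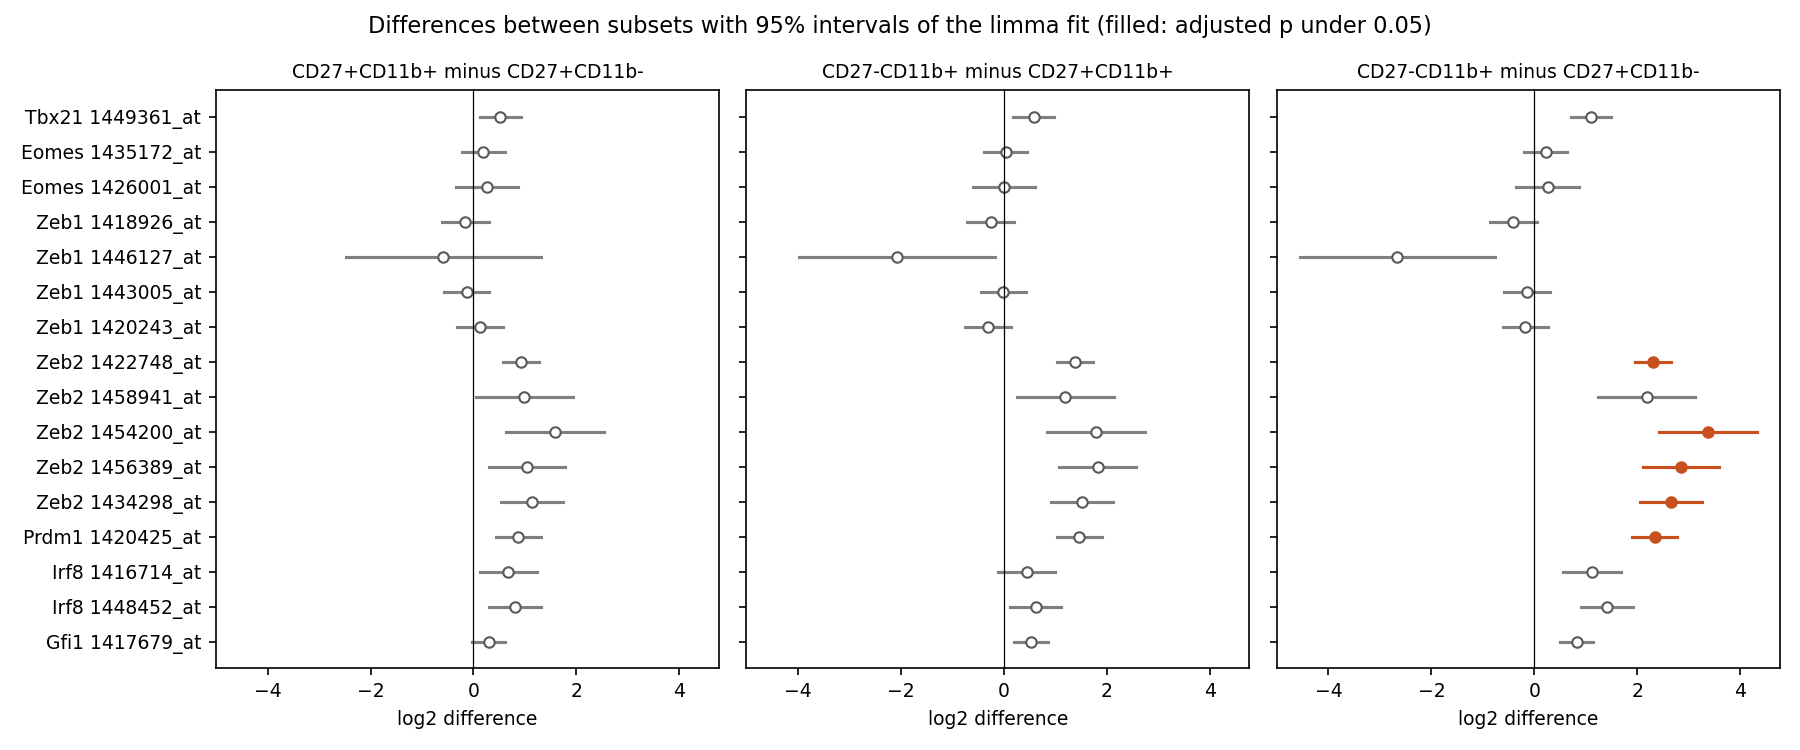
Log2 differences (horizontal axis) of each probe set (rows) in the first step, the second step and between the outer subsets (panels), with 95% intervals of the limma fit; filled points had an adjusted p under 0.05. The 5 filled points are 4 Zeb2 probe sets and Prdm1 in the outer comparison, and the interval of Zeb1 1446127_at is the widest in each panel.

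Counted over the 16 probe sets, 5 were called in the outer comparison, all higher in CD27-CD11b+ (4 of Zeb2 and 1 of Prdm1), against 0.357% of all probe sets called higher and 0.282% called lower, 0.639% in all. The F test over the subsets called 3, from Zeb2 (1422748_at and 1434298_at) and Prdm1, against 0.206% of all. In the second step limma called 0 of 16, against 0.04% of all probe sets (0.02% in each direction), and 10 had an unadjusted p under 0.05 against 8.72% of all. Of these, 9 from 5 genes, with every Zeb2 probe set among them, were higher, against 6.11%, and 1, Zeb1 1446127_at, was lower. In the first step limma called 0 of 16, with 0% called over all 45037, and 9 had an unadjusted p under 0.05, against 2.97%. All 9 were higher in CD27+CD11b+, against 1.47% of all, and came from 4 genes, with every Zeb2 probe set among them. The 10 probe sets of 5 genes, Tbx21, Zeb2, Prdm1, Irf8 and Gfi1, had every array above every array of the preceding subset in both steps, against 4.35% of all probe sets and 5.34% of genes by their brightest probe set. Without overlap and higher in 1 step alone, these 10 stand against 14.8% of all probe sets in the first step and 20.7% in the second, and 11, with Eomes 1426001_at added, against 24% in the outer comparison. Of Zeb1, 3 probe sets were lower without overlap in the second step and 3 in the outer comparison, against 16.8% and 22.8% of all. Whether the 2 steps differ in size was tested within the fit: 0 of 16 were called (0% of all), 0 had an unadjusted p under 0.05 against 2.54% of all, and for Zeb2 1422748_at the second step exceeded the first by 0.46 (95% interval -0.15 to 1.08).

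The calls depended on which features and which arrays entered the fit. With 1 probe set per gene fitted over 18193 genes, 5 of the 7 genes were called higher in CD27-CD11b+ than in CD27+CD11b-, against 2.24% of genes called higher and 3.39% called in all: Zeb2 (adjusted p = 4.66e-04), Prdm1 (8.25e-04), Tbx21 (0.0158), Gfi1 (0.0279) and Irf8 (0.0385), all by limma. In the second step that fit called Zeb2 (adjusted p = 0.0165) and Prdm1 (0.0254), against 0.17% of genes called higher and 0.297% in all, and in the first step 0 of the 7 genes, against 0.033% called higher and 0.121% in all. Its F test called Zeb2, Prdm1 and Tbx21, against 1.35%. Without CD27+CD11b- replicate 1 or replicate 2, 0 of 16 probe sets were called in the outer comparison, and limma's adjusted p became 0.0669 and 0.0819 for Zeb2 1422748_at and 0.0926 and 0.110 for Prdm1. Without CD27-CD11b+ replicate 1, the array with the conflicting sort description, Zeb2 1422748_at differed by 2.40 (limma adjusted p = 0.0198) and Prdm1 by 2.12 (limma adjusted p = 0.0317) in the outer comparison, while 1456389_at and 1434298_at no longer passed (0.0933 and 0.0667). Without either CD27+CD11b+ array, Zeb2 1422748_at and Prdm1 were the 2 probe sets called.

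**Figure D3:**
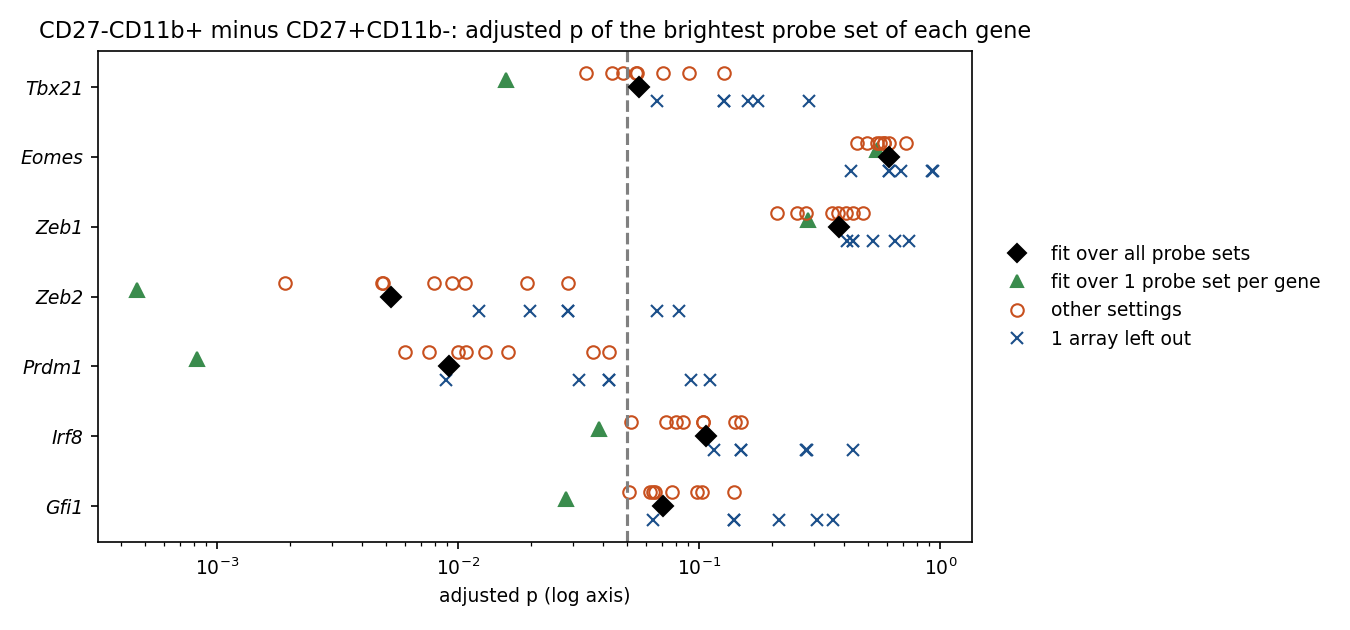
Adjusted p (horizontal log axis) of the outer comparison for the brightest probe set of each gene (rows), with the fit over all probe sets as black diamonds, the fit over 1 probe set per gene as green triangles, other settings as open circles, fits without 1 array as crosses and a dashed line at 0.05. Zeb2 and Prdm1 lie left of the line except for the 2 crosses without a CD27+CD11b- array, and Eomes and Zeb1 lie right of it in all settings shown.

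Irf8 and Zeb2 are also known from monocytes and macrophages, so their values were set beside the markers of those cells. Within set A, which had the lower myeloid marker levels, the outer difference was 2.36 for Zeb2 1422748_at, 2.07 for Prdm1, 1.30 for Irf8 1416714_at, 0.90 for Tbx21 and 0.77 for Gfi1. Within set B it was 2.24, 2.61, 0.94, 1.30 and 0.87 in the same order. These are single arrays, and the signs were fixed by the lack of overlap between the outer subsets. For Irf8 1416714_at the set B array exceeded the set A array by 0.49 for CD27+CD11b- cells, by 0.47 for CD27+CD11b+ cells and by 0.13 for CD27-CD11b+ cells. For Irf8 1448452_at it did so by 0.40 for CD27+CD11b- cells and by 0.43 for CD27-CD11b+ cells, and for CD27+CD11b+ cells the set B minus set A difference was -0.04. For Zeb2 1456389_at, replicate 2 minus replicate 1 was 0.73, 0.67 and 0.08 in the order of maturation, and for 1434298_at 0.67, 0.36 and 0.09. It was 0.08, 0.24 and 1.31 for 1454200_at and -0.22, 0.21 and 1.28 for 1458941_at. Replicate 2 is the set B array in both CD27+ subsets and the set A array in CD27-CD11b+. The markers' part in these gaps was not tested. Of 11 dendritic cell genes 5 were above background in at least 1 subset, Itgax, H2-Aa, H2-Ab1, Cd74 and Batf3, and the other 6, among them Siglech, Xcr1 and Cd209a, in none. H2-Aa followed the sets, at 9.03, 9.19 and 9.14 in set A and 10.82, 10.85 and 10.72 in set B. Its probe set is among the 30 by which this division was picked, so that was fixed in advance. The mean of the 11 genes differed less, at 6.78, 6.88 and 6.72 in set A and 7.20, 7.08 and 7.27 in set B. Some genes did not follow: Cd74 in CD27+CD11b+ was 8.01 in set A and 7.69 in set B, and Itgax in CD27+CD11b- 11.17 and 11.11. Of 8 neutrophil genes 6 were above background in at least 1 subset. Their list mean was 6.20, 6.68 and 6.71 in set A and 7.56, 7.56 and 7.45 in set B.

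**Figure D4:**
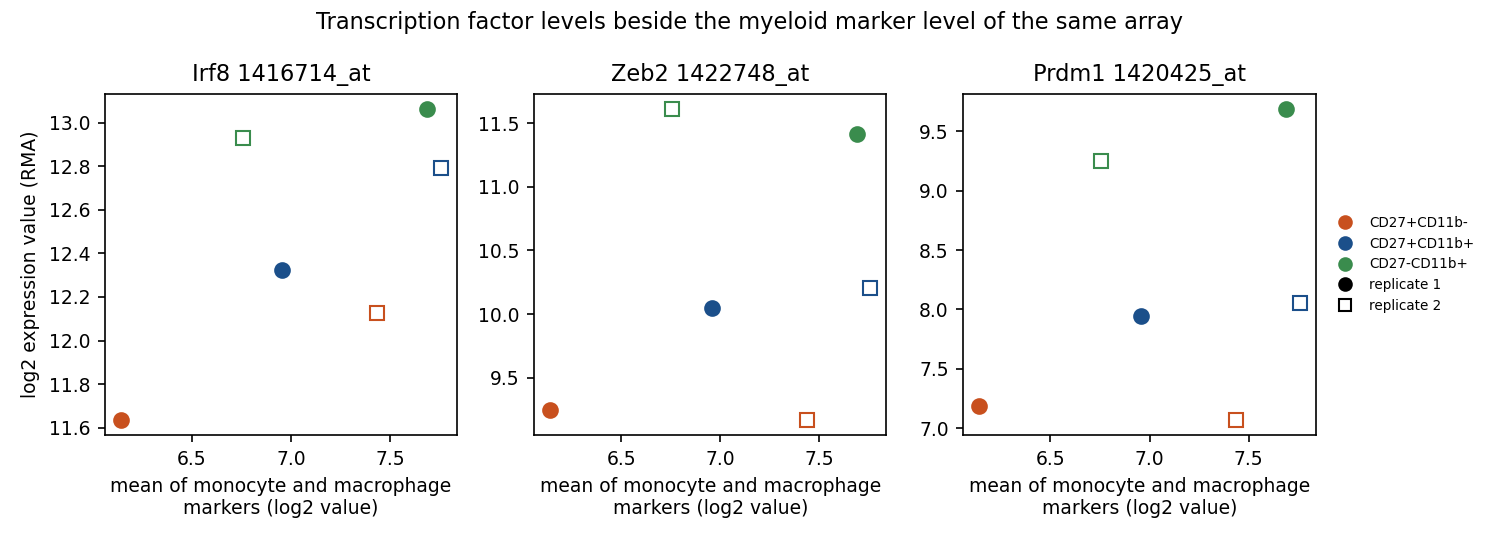
Log2 values of Irf8, Zeb2 and Prdm1 (vertical axes, 1 panel each, brightest probe set) against the mean of 14 monocyte and macrophage markers on the same array (horizontal axis), coloured by subset, with replicate 1 filled and replicate 2 open. The 2 Zeb2 points of a subset lie within 0.20 of each other, and the marker means of a subset lie up to 1.29 apart. In CD27+CD11b-, where the markers lie 1.29 apart, the Zeb2 probe sets not shown differed by -0.22 to 0.73 (replicate 2 minus replicate 1). A relation to the markers was not tested.

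Of 15 measured genes that T-bet, Eomes or Zeb2 are known to induce, 6 rose in CD27-CD11b+ relative to CD27+CD11b-, 1 fell and 8 did not pass, against 0.489% of genes called higher and 0.434% called lower. The median difference was 1.38, against -0.01 over all genes and 0.14 over the probe sets above background in a subset. Cx3cr1, the fractalkine receptor, averaged 11.44 ± 0.70 in CD27-CD11b+ and 6.66 ± 0.0012 in CD27+CD11b- (SD, n = 2 each), and it also rose in the second step (4.08, limma adjusted p = 0.0351), the only call among the 15 there over all probe sets, where 0.0275% of genes were called in each direction. With 1 probe set per gene, S1pr5 (limma adjusted p = 0.0161) and Klrg1 (0.0108) were also called higher in that step and Cxcr3 (0.0276) lower. The CD27+CD11b- level of Cx3cr1 was under background. The inhibitory receptor Klrg1 rose by 3.52, the sphingosine-1-phosphate receptor S1pr5, used to leave lymphoid organs, by 2.54, granzyme B (Gzmb) by 2.50 and perforin (Prf1), the pore protein of cytotoxic granules, by 1.38. The other call, Itgam at 3.56, encodes the CD11b of the sort and was under background in CD27+CD11b-. Cxcr3, a chemokine receptor that T-bet is known to induce in T cells, fell by 2.10 (limma adjusted p = 0.0317). Ifng differed by 0.62 (limma adjusted p = 0.182) and Il2rb by 0.06. In the first step 0 of the 15 passed over all probe sets, against 0% of genes, and with 1 probe set per gene Gzmb, Klrg1 and Itgam did. That fit called 8 higher and 1 lower in the outer comparison, with Ccl3 and Ccl4 added. Without CD27-CD11b+ replicate 1, limma called 4 of the 15 higher (S1pr5, Klrg1, Cx3cr1 and Itgam) and 0 lower, and without CD27+CD11b- replicate 1 or replicate 2 it called 2 and 1 higher, Klrg1 in both.

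Among 13 measured genes that Zeb2, Blimp-1 or Gfi1 are known to repress, 2 fell between the outer subsets, 0 rose and 11 did not pass. Over all genes 0.434% were called lower and 0.489% higher. The list median was -0.40, against -0.01 over all genes and 0.14 over the probe sets above background in a subset. Of the 13 genes, 7 were above background in at least 1 subset. Il7r, the interleukin-7 receptor chain, averaged 7.30 ± 0.12 in CD27-CD11b+ and 11.59 ± 0.16 in CD27+CD11b- (SD, n = 2 each), a fall of 4.29 that passed in limma (adjusted p = 0.00248). It was also called in the second step, where it fell by 1.96 (limma adjusted p = 0.0394). In the first step Il7r fell by 2.32 and was not called over all probe sets (limma adjusted p = 0.0594). With 1 probe set per gene it was called in the first step (limma adjusted p = 0.00484) and in the second (0.00537). Il2, the other call between the outer subsets at -1.12, was under background on all arrays. Myc, Bcl2 and Bcl6 differed by -1.07, -0.79 and 0.19 and did not pass. The Bcl2 probe set was 9.16 and 11.51 on the CD27-CD11b+ arrays, against 11.09 and 11.15 on the CD27+CD11b- arrays. Cd27 of the sort differed by -1.70 (limma adjusted p = 0.104). With 1 probe set per gene 3 were called lower, with Cd27 added (limma adjusted p = 0.0325). Il7r was called in each fit that left out 1 array. Both lists were chosen with earlier results of these arrays known, so their counts are no independent evidence.

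Of 24 measured upstream regulators, which included Nfil3, Id2, Ets1, Tox, the STATs, Runx and Foxo factors, 0 passed in any comparison, with an outer median of 0.11. Tyk2 differed by 0.89 (limma adjusted p = 0.0548) in the outer comparison and was called higher there with 1 probe set per gene, with 32 added to the linear values and with arrays centred on their medians. The 16 partners and co-repressors, among them the Zeb-binding Ctbp1 and Ctbp2 and the Gfi1-binding Kdm1a and Rcor1, also had 0 calls in limma and an outer median of 0.16. Of 13 related family genes 0 were called and 5 were above background in any subset, with Gfi1b at or under 5.41 in the subset means. Over all genes, 0.489% were called higher and 0.434% lower in the outer comparison, 0.0275% in each direction in the second step and 0% in the first. With shares this low, 0 calls in lists of 24, 16 and 13 genes say little about them. The outer median was -0.01 over all genes and 0.14 over the probe sets above background in a subset.

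**Figure D5:**
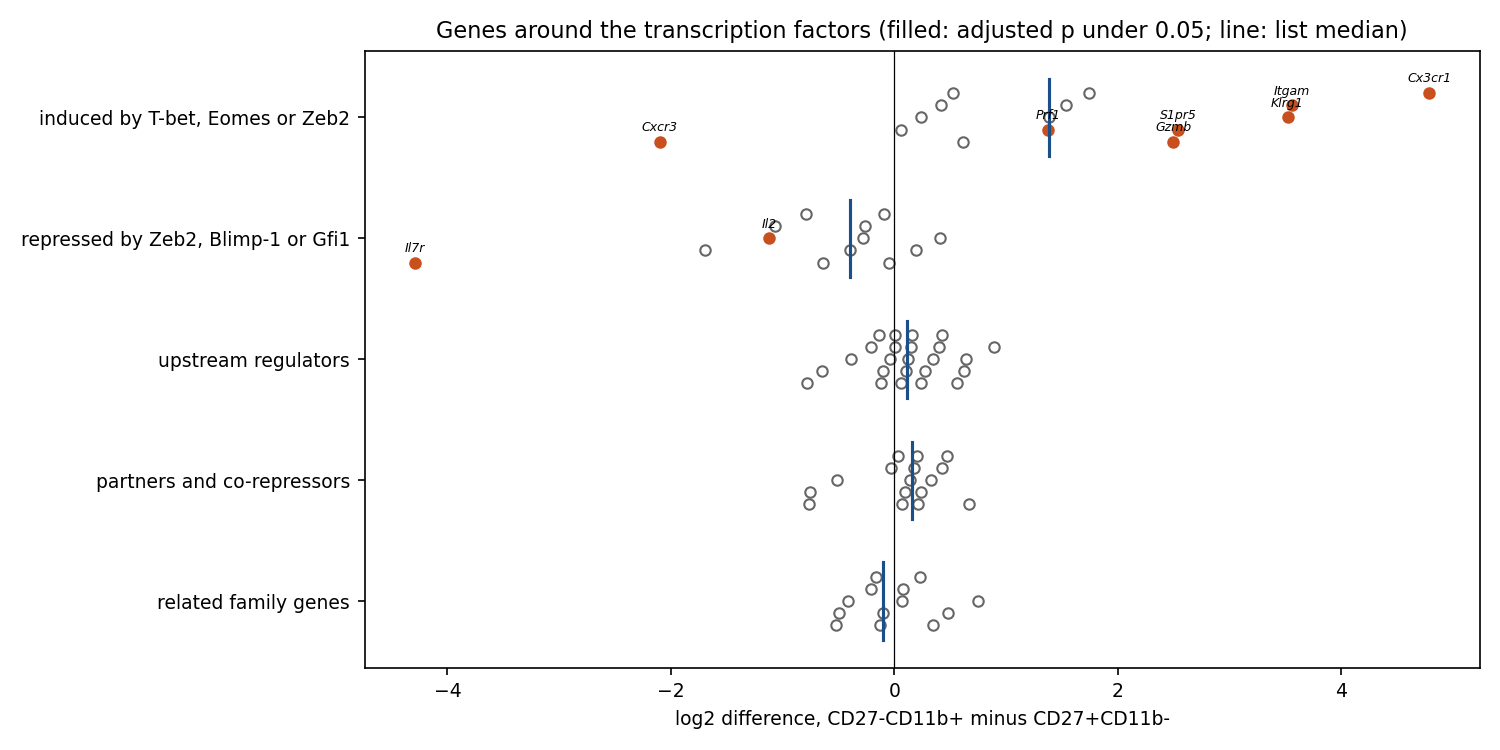
Log2 differences between CD27-CD11b+ and CD27+CD11b- (horizontal axis) for genes of 5 lists (rows), with filled points at an adjusted p under 0.05 and a line at each list's median. Points of the induced list reach 4.79 for Cx3cr1, Il7r lies at -4.29 in the repressed list, and the other 3 lists hold 0 filled points.

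Genes with patterns most like those of the factors were taken by Pearson correlation over the 6 arrays among 458 genes above background whose subset means spanned at least 1. The 3 closest to Zeb2 were Zfp82 (0.998), Ptpn12 (0.993) and S1pr5 (0.993), and S1pr5 was 9.88 and 9.49 in CD27+CD11b-, 10.69 and 10.61 in CD27+CD11b+, and 12.18 and 12.27 in CD27-CD11b+. Closest to Prdm1 were Tmem14a (0.998), Arhgef18 (0.998) and Nhsl2 (0.997), to Tbx21 Zfp763 (0.995), Socs4 (0.995) and Tmem163 (0.985), and to Irf8 the inhibitory Fc receptor gene Fcgr2b (0.993), Tmcc3 (0.990) and Slc41a2 (0.989). The arrays share their subsets, so these values describe order and shape only. Eomes, Zeb1 and Gfi1 spanned less than 1 and were not matched.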

How the data were processed

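The deposited table holds 1 log2 expression value per probe set and array, made by the authors with RMA, per the submitters' processing notes. Its version is not given in the sources used here. The method gives all arrays nearly the same distribution, which would remove a shift of the whole transcriptome, and it compresses differences of dim probe sets. Array medians lay between 5.26 and 5.36, and precision is limited by their number. Scanner files were not used here.

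Of 45101 probe sets, 64 controls were left out. The array annotation gave 1 gene symbol for 34945, several for 932 and none for 9160 of the others. All 7 gene symbols were found in RefSeq, and 0 probe sets of several symbols included them. Background was set from 49 measured genes of other tissues. Samples were grouped by title. All 45037 probe sets entered a linear model with a mean for each subset (limma 3.58.1, R 4.3.3) on the 6 arrays (3 residual and 3.34 prior degrees of freedom) and Benjamini-Hochberg adjustment over all of them. Lists were read by the brightest probe set of each gene. Named were all probe sets of the 7 genes, the list genes called, the sorting markers, and, chosen after their values were seen, a few list genes that were not called and the second Ptprc probe set. Likeness of patterns was the Pearson correlation over 6 arrays, for the brightest probe set of each gene. The statistics were tested on simulated data. The genes, lists and motifs were chosen with earlier results of these data known. Alternatives concerned the variance prior, filtering, scaling, an added constant of 32, blocks, features and arrays.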

Additional observations from a re-analysis of the deposited data

How the results depend on the processing

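Of the 16 probe sets, the second step called 2 with 1 probe set per gene, against 0. The outer comparison, with 5 calls, had 3 with 32 added to the linear values and 2 with only its 4 arrays, but 7 with a variance prior that follows the level, 7 with probe sets above background only and 6 with arrays centred on their medians. Tbx21 was called in these 3 settings and Irf8 1448452_at in the first 2 of them. The F test, with 3, had 1 with 32 added and 5 with the level-dependent prior. With 1 array left out, the second step had 0 to 3 calls, the outer comparison 0 to 8 and the F test 0 to 4. The 8 were reached without CD27-CD11b+ replicate 2, when 971 of all probe sets were called, and the 0 of the outer comparison without either CD27+CD11b- array. The lone array left in a subset is then assumed to vary like the others. The causes were not tested. The first step and the difference between the steps called 0 of the 16 under every alternative run.

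Over all features, the first step called 0 probe sets and 22 genes with 1 probe set per gene, 3 with the level-dependent prior and 1 after renewed quantile normalization, and the difference between the steps 0 and 1 gene. The second step called 18, against 54 with 1 probe set per gene, 2 with 32 added, 0 with its 4 arrays, and 0 to 415 with 1 array left out. The outer comparison called 288, against 617, 127, 68, and 18 to 971, and the F test 93, against 246 with 1 probe set per gene, 31 with 32 added and 0 to 371. Replicate numbers of the titles did not pair the arrays throughout: deviations of same-numbered arrays correlated at 0.611 between CD27+CD11b+ and CD27+CD11b-, 0.060 between CD27-CD11b+ and CD27+CD11b+ and -0.075 between CD27-CD11b+ and CD27+CD11b-. With the replicate number as a block, 5 of the 16 were called in the outer comparison and 4 in the F test, and the second step's 18 calls over all became 11. With sets A and B as a block, an alternative chosen after seeing the data, these were 6 and 4, with Irf8 1448452_at added in the outer comparison (limma adjusted p = 0.0393), and over all probe sets the second step called 5 and the F test 176.

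Differences that turned sign were all uncalled ones of Eomes and Zeb1. With 1 array left out, the first step ran from -0.11 to 0.62 for Eomes 1426001_at, -0.33 to 0.017 for Zeb1 1418926_at, -0.33 to 0.073 for Zeb1 1443005_at and -0.11 to 0.37 for Zeb1 1420243_at, and the second from -0.11 to 0.18 for Eomes 1435172_at, -0.37 to 0.36 for Eomes 1426001_at and -0.22 to 0.19 for Zeb1 1443005_at. In the second step Eomes 1435172_at was -0.038 after renewed quantile normalization, and centring each array gave 0.031 for Eomes 1426001_at and 0.021 for Zeb1 1443005_at.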

Other observations

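For several second probe sets, chosen after their values were seen, CD27-CD11b+ replicate 1 was lower than replicate 2 by more than 1. Among them were Zeb1 1446127_at, Zeb2 1454200_at and Zeb2 1458941_at. The pan-leukocyte gene Ptprc was 9.59 in CD27-CD11b+ replicate 1 and 11.32 in replicate 2 by 1440165_at, and 13.66 and 13.71 by 1422124_a_at. Of 4706 probe sets above background and not the brightest of their gene, 14.6% were lowest of the 6 arrays in CD27-CD11b+ replicate 1. The share was 13.5% in replicate 2, 21.1% and 8.52% in CD27+CD11b+, and 21.8% and 20.5% in CD27+CD11b-. Among the 7677 brightest probe sets above background, it was 7.44% and 16.4% in CD27-CD11b+ (replicates 1 and 2). In CD27+CD11b+ it was 21.7% and 10.9%, and in CD27+CD11b- 23.3% and 20.4%. The share of CD27-CD11b+ replicate 1 was thus higher among probe sets that were not the brightest. The cause was not tested. The gap between the 3' and 5' beta-actin controls was 0.91 and 1.05 in the 2 CD27-CD11b+ arrays (replicates 1 and 2), 0.96 and 1.98 in CD27+CD11b+ and 1.53 and 2.41 in CD27+CD11b-.

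Of 7 measured markers of other innate lymphoid cells, 5 fell in CD27-CD11b+ relative to CD27+CD11b- (Il7r, Tmem176a, Tmem176b, Kit and Ltb) and 2 did not pass, against 0.434% of genes called lower. Without CD27-CD11b+ replicate 1, 3 of the 7 were called lower, and without either CD27+CD11b- array only Il7r was. The receptor tyrosine kinase gene Kit averaged 5.10 ± 0.13 in CD27-CD11b+ and 8.25 ± 0.77 in CD27+CD11b- (SD, n = 2 each), the CD27-CD11b+ level being under background. Tmem176b averaged 7.74 ± 0.12 and 10.03 ± 0.20 in the same order.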
